A study of Neurospora crassa with 10 samples.

Results

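Introns within coding sequence are the gaps that splicing removes from between coding exons, and here they were read from the gene annotation of the Neurospora crassa assembly nc14. For each of 9730 protein-coding genes the transcript with the longest summed coding sequence (CDS) was taken, and every gap between consecutive CDS records that was also a gap between exons was a member. This gave 15631 introns, 92.1% of the 16972 introns in those transcripts, and the remaining introns lay in the untranslated regions (UTRs). The series is one of in situ Hi-C, an assay that records contacts between DNA segments, in germinated conidia of the wild type strains N150 and N3752. Chromatin was cut with DpnII (8, 15 or 23 PCR cycles for N150 and 8 for N3752), with MseI (8 cycles for each strain) or with both enzymes, and merged DpnII and MseI datasets completed the 10 samples. Both strains are wild type, the cultures were asexual and all were crosslinked with formaldehyde. The annotation is the deposited file used here, it belongs to the series as a whole, and it holds no value per library, so that groups of libraries could not be compared and no test was made. The assembly nc14 is the version in which the authors placed unassigned supercontigs into linkage group (LG) I and LG V with MseI contact data.

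An intron starts at the 5′ splice site and ends at the 3′ splice site, and the spliceosome joins the exons on either side. In filamentous fungi introns are short as a rule, and an intron is recognised across its own length. The phase of an intron is its place in the reading frame: a phase 0 intron lies between codons, a phase 1 intron follows the first base of a codon and a phase 2 intron follows the second. When a coding exon between introns has a length divisible by 3, its removal or addition leaves the frame of the next exon as it was. Neurospora is a classical organism for genetics, and genes such as am, al-1 and cot-1 are among its long-studied loci.

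Most Neurospora protein-coding genes held at least 1 intron in the CDS. A member was present in 7574 genes (77.8%), and 2156 genes (22.2%) had a CDS in 1 piece. The most frequent number was 1 intron, in 3339 genes, followed by 2 introns in 2203 genes, 3 in 1095 genes and 4 in 498 genes. The mean was 1.61 introns per gene, or 2.06 per gene with any. Only 439 genes had 5 or more, and these held 16.7% of all members, while 19 genes had 10 or more. Together the members covered 1733 kb, equal to 11.7% of the summed length of the CDS. The strands did not stand apart, with 1.61 introns per gene on each.

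**Figure D1:**
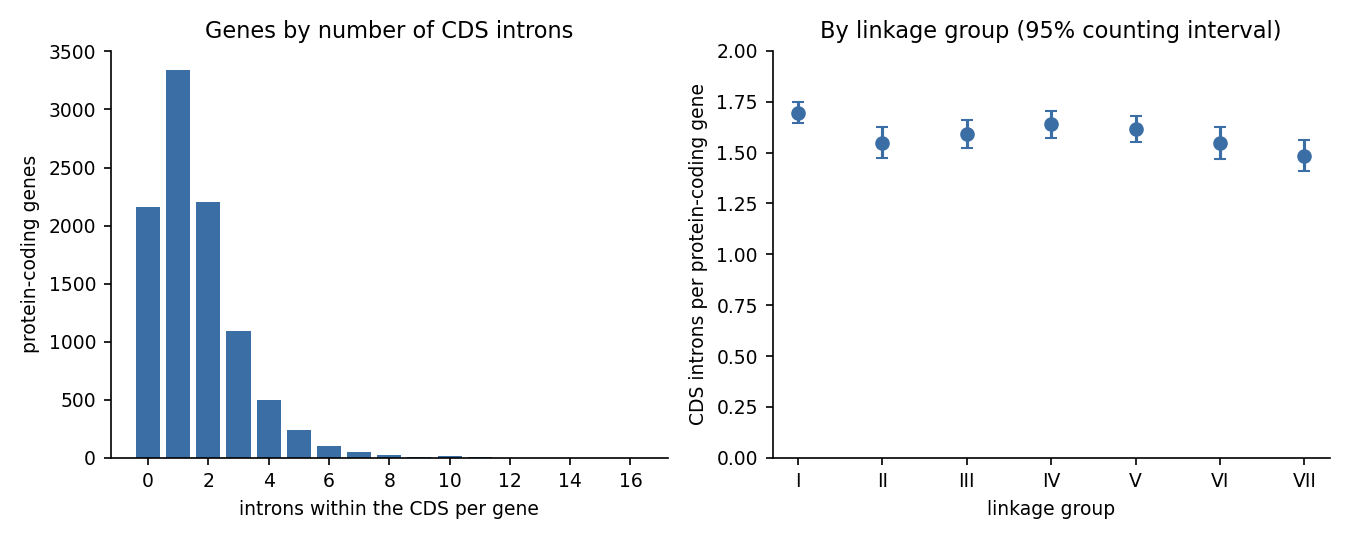
The left panel plots the number of protein-coding genes (vertical axis) against the number of introns in the CDS of the gene, and 3339 genes sit at 1 intron while 2156 have 0. The right panel plots introns per protein-coding gene for each LG with a 95% counting interval, and the 7 values lie between 1.48 on LG VII and 1.70 on LG I.

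Long coding sequences held more introns per gene but far fewer per kb. Genes with a CDS under 300 bp had 1.33 introns per gene and 5.40 per kb of CDS, and genes with a CDS of 6000 bp or more had 2.40 per gene and 0.303 per kb. Between these classes the number per gene ran from 1.37 (600 to 899 bp) to 1.92 (3000 to 5999 bp). The share of genes with no member was highest, 25.3%, at 300 to 599 bp, and was 6.02% among the 83 genes with the longest CDS.

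The gene with the most members was NCU06011 on LG VI, with 16 introns in a CDS of 3651 bp. Its introns measured between 52 and 427 bp, and 15 of the 16 were no longer than 104 bp. The gene gh13-2 (NCU09805, LG I), a member of glycoside hydrolase family 13, had 15 introns of 54 to 121 bp in a CDS of only 1887 bp. It was followed by NCU05925 on LG VI with 13 introns (46 to 180 bp). Next came 4 genes with 11 introns each, of which NCU01853 and suc (NCU02505, pyruvate carboxylase) lie on LG I. The introns of NCU01853 ran from 48 to 102 bp and those of suc from 58 to 531 bp. The highest numbers on the other LGs were 11 for NCU03398 on LG II, 10 for thi-4 (NCU07849) on LG III, 11 for NCU07648 on LG IV, 10 for cdc15 (NCU01335) on LG V and 9 for NCU02404 on LG VII. In NCU02404 the introns nearest to the start codon were the long ones, at 1006 and 467 bp, and the other 7 measured 55 to 120 bp. The same order was seen in cdc15, where the first intron had 375 bp and the other 9 had 52 to 70 bp. The first intron was also the longest in gh13-2, NCU01853 and NCU03398. Elsewhere the longest intron came later, as number 3 in NCU06011, NCU05925 and thi-4, number 6 in NCU07648 and number 9 in suc.

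Intron length was confined to a narrow range for most members. The median was 74 bp (95% counting interval 74 to 75 bp), the middle of the distribution ran from 62 bp at the 25th percentile to 109 bp at the 75th, and 55.7% of the members had 50 to 79 bp. The most frequent single length was 59 bp, with 436 introns. At the short end the distribution stopped abruptly, with 138 introns (0.883%) under 50 bp and 26 (0.166%) under 40 bp. At the long end 1606 (10.3%) exceeded 200 bp, 245 exceeded 500 bp and 23 exceeded 1000 bp. Over all members 33.5% had a length divisible by 3 (95% counting interval 32.8 to 34.3%). Among the introns over 200 bp the share was 37.6% (35.2 to 40.0%), against 33.1% (32.3 to 33.9%) among those of 50 to 200 bp. These intervals do not overlap, but they cover counting error only, and no test was made. Among the 112 introns of 40 to 49 bp the share was 24.1% (16.5 to 33.1%), and 58.0% left a remainder of 1.

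**Figure D2:**
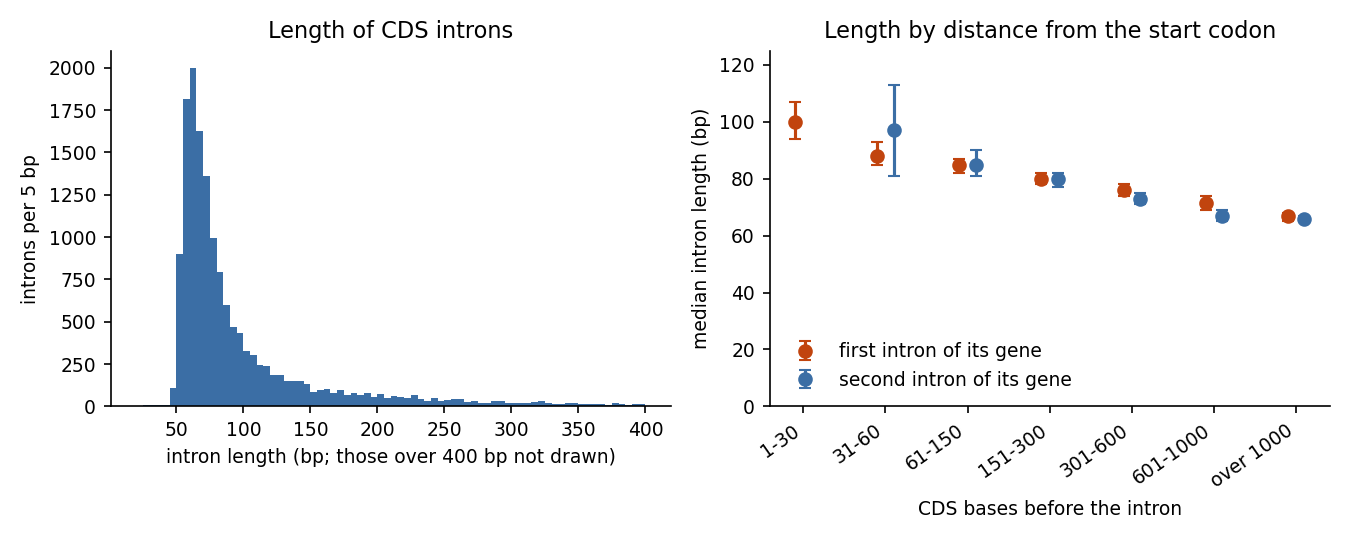
The left panel plots the number of CDS introns in each 5 bp of length, without the 452 introns over 400 bp, and the peak lies near the most frequent length of 59 bp. The right panel plots the median length (bp, with a 95% counting interval) of the first and of the second intron of a gene against the number of CDS bases before it, and both fall from the start codon onwards, to 67 bp and 66 bp beyond 1000 bases.

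The longest member was an intron of 1884 bp in NCU16682 on LG III (3702039 to 3703922, minus strand), the last of the 2 introns of that gene. The next was the first intron of stk-10 (NCU03200), a serine/threonine protein kinase gene on LG I, with 1814 bp. The gene fsd-1 (NCU09915, LG IV), known for its part in female sexual development, held a pair of the 5 longest introns, 1812 bp after 21 coding bases and 1494 bp after 89 coding bases. Both of its introns therefore lay within the first 5% of its 1878 bp CDS. The intron of 1605 bp in NCU01527 (LG II) was the only one of its gene and followed 137 coding bases. Of these 5 introns, 4 followed fewer than 200 coding bases, and NCU16682 was the exception with 1406.

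The shortest members were 3 introns of 21 bp, in NCU08737 on LG II (3839509 to 3839529), in NCU09569 on LG VII (971525 to 971545) and in NCU08154 on LG VII (3561775 to 3561795). All 3 were the only intron of their gene, all were of phase 1 and all had a length divisible by 3. The gene rid-1 (NCU02034, LG I), a DNA methyltransferase homologue needed for repeat-induced point mutation, had a single intron of 24 bp after 1806 of its 2511 coding bases. The next shortest had 25 bp, in NCU07350 (LG I) and NCU07933 (LG IV). Of the 26 members under 40 bp, 17 (65.4%) were the only intron of their gene, against 21.4% of all members, and 12 had a length divisible by 3. LG III held 9 of them, LG II 6, LG I 5, LG VII 4 and LG IV 2, with 0 on LG V and on LG VI. Whether gaps of this length are spliced was not tested, since the annotation holds no reads.

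Introns were longer close to the start codon. Members after 1 to 30 coding bases had a median of 101 bp (94 to 107 bp), and the median was 88 bp after 31 to 60 bases, 84 bp after 61 to 150, 79 bp after 151 to 300, 74 bp after 301 to 600, 68 bp after 601 to 1000 and 67 bp beyond that. The share over 200 bp was 19.7% in the nearest class and 5.57% in the farthest. By order in the gene, the medians were 80 bp for the first intron, 73 bp for the second, 69 bp for the third, 68 bp for the fourth and 67 bp for the fifth. The first and the second intron were also compared at matched distance from the start codon. After 31 to 60 bases the first had a median of 88 bp (85 to 93 bp) and the second 97 bp (81 to 113 bp), with 16.1% and 21.5% over 200 bp. After 151 to 300 bases both the first and the second intron had a median of 80 bp, after 61 to 150 bases both had 85 bp, and after 601 to 1000 bases the first had 71.5 bp (69 to 74 bp) and the second 67 bp (65 to 69 bp). The fall with distance was present in each LG. Within the first 300 coding bases the LG medians were 79 to 90 bp, from 301 to 600 they were 71.5 to 75 bp, and beyond 600 they were 65 to 69 bp. In the 4235 genes with 2 or more members, the first intron was longer than the last in 2482 (58.6%) and shorter in 1671 (39.5%). Across these genes the first and last lengths were weakly related (Spearman's rho 0.20, Pearson's r 0.15), given as a description only since genes are not independent replicates.

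Set beside the introns of UTRs in the same transcripts, members were shorter than those upstream of the CDS and close to those downstream. The medians were 74 bp for members (74 to 75 bp), 103 bp for the 1052 introns of 5′ UTRs (97 to 109 bp) and 71 bp for the 289 introns of 3′ UTRs (69 to 74 bp). Over 200 bp lay 10.3% of the members, 24.7% of the 5′ UTR introns and 10.4% of the 3′ UTR introns. Members after 1 to 30 coding bases, with a median of 101 bp, were thus nearest in length to the 5′ UTR introns. In the 934 genes with a 5′ UTR intron there were 1.59 members per gene with a median of 68 bp, against 1.61 members per gene with a median of 75 bp in the 8796 genes without one. Per kb of CDS there were 0.902 members with a 5′ UTR intron, against 1.07 without. The genes with a 5′ UTR intron also had the longer CDS, with a median of 1401 bp against 1254 bp. Density fell with CDS length over all genes, and a difference at matched CDS length was not tested. No member was present in 28.9% of the genes with a 5′ UTR intron, against 21.4% of those without.

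Intron phase was unequal and varied little. Phase 0 accounted for 6053 members (38.7%, 95% counting interval 38.0 to 39.5%), phase 1 for 5345 (34.2%) and phase 2 for 4233 (27.1%, 26.4 to 27.8%). The order of phase 0, phase 1 and phase 2 held in all 7 LGs. The phase 0 share was 38.3% on LG I, 39.3% on LG II, 40.8% on LG III, 40.5% on LG IV, 38.0% on LG V, 37.5% on LG VI and 36.1% on LG VII. On LG VII phase 0 exceeded phase 1 by only 561 to 546 introns, and on LG III by 814 to 645. Along the CDS the phase 0 share was compared in 10 equal parts, and lay between 37.5% and 39.4% in the first 9 and at 41.9% (39.1 to 44.8%) in the last. Length did not go with phase, since the medians were 74, 74 and 75 bp for phases 0, 1 and 2.

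**Figure D3:**
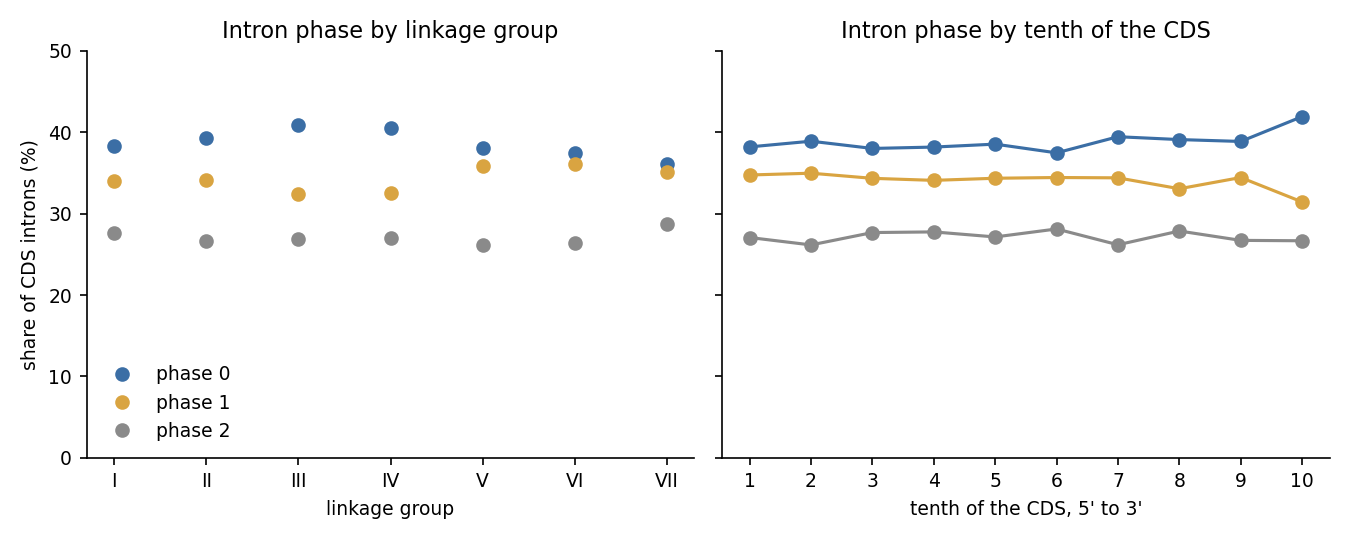
Points are the share of CDS introns (%) in phase 0, phase 1 and phase 2, by LG in the left panel and by equal part of the CDS (10 parts, from 5′ to 3′) in the right panel. Phase 0 is the most frequent in every LG and part, and phase 2 the least frequent.

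Neighbouring introns of a gene were compared over 8057 consecutive pairs. After a phase 0 intron the next was of phase 0 in 41.4% of pairs, against 36.6% after a phase 1 intron and 37.6% after a phase 2 intron. The next intron was of phase 1 in 35.6% of pairs after phase 1 and in 31.4% after phase 0. The 8057 internal coding exons between them had a median of 204 bp (25th to 75th percentile 94 to 479 bp), and 2892 (35.9%) had a length divisible by 3. By the definition of phase, these 2892 are the exons between introns of the same phase. Initial coding exons had a median of 195 bp and terminal ones 459 bp, against 1173 bp for a CDS without introns. A single phase throughout was rare, and was found in 12 of the 439 genes with 5 or more members. The most extreme case, singled out after its values were seen, was NCU03398 on LG II, in which all 11 introns were of phase 1. Its 10 internal coding exons measured 78, 120, 66, 63, 63, 84, 126, 81, 63 and 60 bp, between an initial exon of 280 bp and a terminal exon of 1010 bp. Each of these 10 lengths is divisible by 3, which follows from the shared phase and is no separate result. The other genes with 6 or more introns in 1 phase were NCU09604, NCU03499 and NCU07946, all in phase 0.

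Very short coding exons were also found. Of the internal exons 423 (5.25%) were under 30 bp and 44 were under 10 bp. The shortest had 3 bp, in NCU09804 on LG I (4108129 to 4108131) and in NCU01768 on LG II (2504238 to 2504240). In NCU01768 it was flanked by phase 0 introns and so formed 1 whole codon, whereas in NCU09804 both flanking introns were of phase 2. Exons of 4 bp were present in NCU03547 (LG II), NCU11030 (LG III), rib-3 (NCU01449, LG V) and nuo9.8 (NCU04781, LG VI), the last named only because it tied. In all 4 the 4 bp exon lay between a phase 0 intron and a phase 1 intron.

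Introns were concentrated toward the 5′ end of the CDS. When each CDS was divided into 10 equal parts, the first part held 3100 members (19.8%), the parts that followed held 2340, 1742, 1517, 1290, 1156, 1108, 1077 and 1127, and the last held 1174 (7.51%). The median position was 33.9% along the CDS, and 63.9% of members lay before its midpoint. In genes with 1 intron the median was 30.4% and 67.7% lay before the midpoint. In genes with 2 introns the medians were 15.6% and 63.4%, and in genes with 3 they were 10.3%, 35.2% and 73.4%, so that the members of a gene were not grouped at its 5′ end alone. Per kb of coding sequence there were 2.71 introns in the first 100 bases, 1.45 from base 301 to 400, 0.862 from base 601 to 700 and 0.566 from base 1001 to 2000. Counted from the 3′ end there were 1.21 per kb in the last 100 bases and 1.05 from base 1001 to 2000. The gradient was present in each of the 3 classes of CDS length examined, all of 900 bp or more. With a CDS of 900 to 1499 bp there were 2.17 per kb in the first 300 bases, 1.02 per kb between and 0.864 per kb in the last 300, with a CDS of 1500 to 2999 bp these values were 1.92, 0.707 and 0.743 per kb, and with a CDS of 3000 bp or more they were 1.44, 0.376 and 0.562 per kb. In both of the longer classes the last 300 bases held more introns per kb than the middle.

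**Figure D4:**
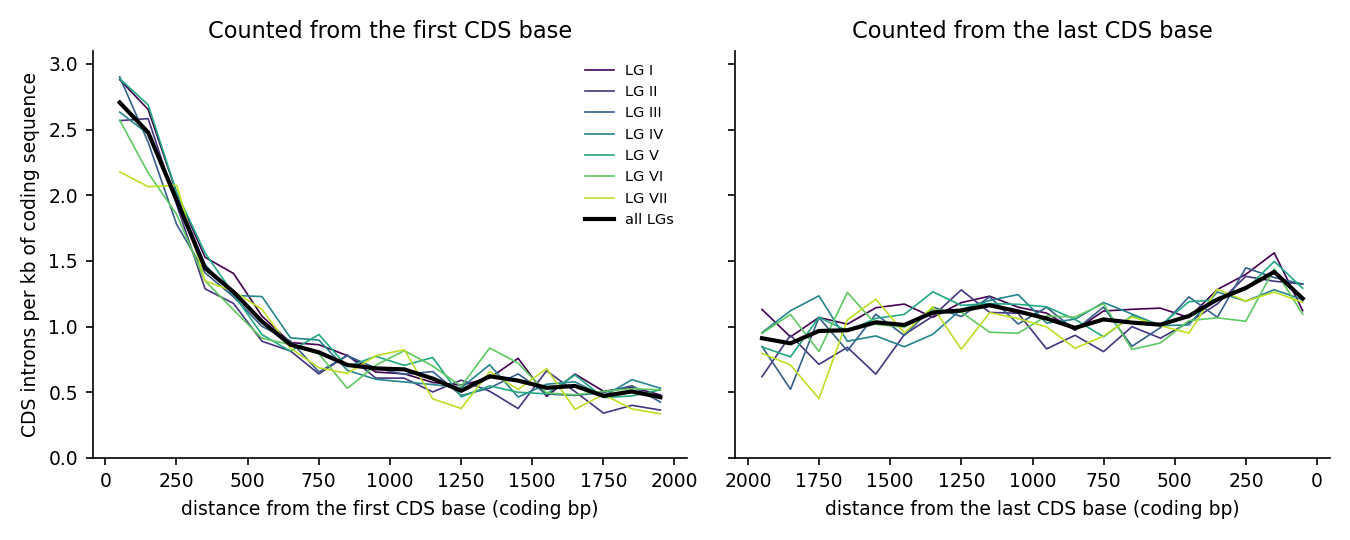
Introns per kb of coding sequence are plotted in steps of 100 bases against the distance from the first CDS base (left) and from the last CDS base (right), up to 2000 bases, with a thin line for each LG and a thick line for all. From the 5′ end the thick line falls from 2.71 to below 0.6 per kb beyond 1400 bases, and within 2000 bases of the 3′ end it lies between 0.872 and 1.42 per kb.

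The base at which the first introns interrupt the CDS was examined next. Directly after the start codon, with 3 coding bases before them, lay 74 introns in 74 genes. An annotated 5′ UTR was present in 68 of these genes and lacking in the rest. At the other 19 phase 0 places up to base 60 there were 15 to 44 introns, with a median of 28, and over all places from base 4 to base 60 there were 14 to 44. The place after the start codon was therefore the most occupied of the first 60 over all LGs together. It held 18 introns on LG I, 7 on LG II, 9 on LG III, 13 on LG IV, 13 on LG V, 10 on LG VI and 4 on LG VII. This order did not hold in every LG. On LG III the places after bases 42 and 45 held 10 each, and on LG VII the place after base 2 held 5. On LG II the place after base 25 also held 7. These introns had a median of 97.5 bp (25th to 75th percentile 71 to 148 bp), ran from 51 to 541 bp, and were the only member of their gene in 11 cases. Of the 74 genes 14 have a symbol, a choice made after the place was seen. They include cmd (NCU04120, calmodulin) with 152 bp, rpt-1 (NCU02840) with 64 bp and rpt-2 (NCU01224) with 66 bp, both ATPases of the proteasome cap, gln-1 (NCU06724) with 143 bp and gln-2 (NCU04856) with 111 bp, both glutamine synthetase genes, and the ribosomal protein genes cyh-2 (NCU03806) with 58 bp and crp-4 (NCU04331) with 192 bp. Without these introns the phase 0 share of all members was 38.4%. Among the 603 members after 4 to 30 coding bases it was 37.3%.

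**Figure D5:**
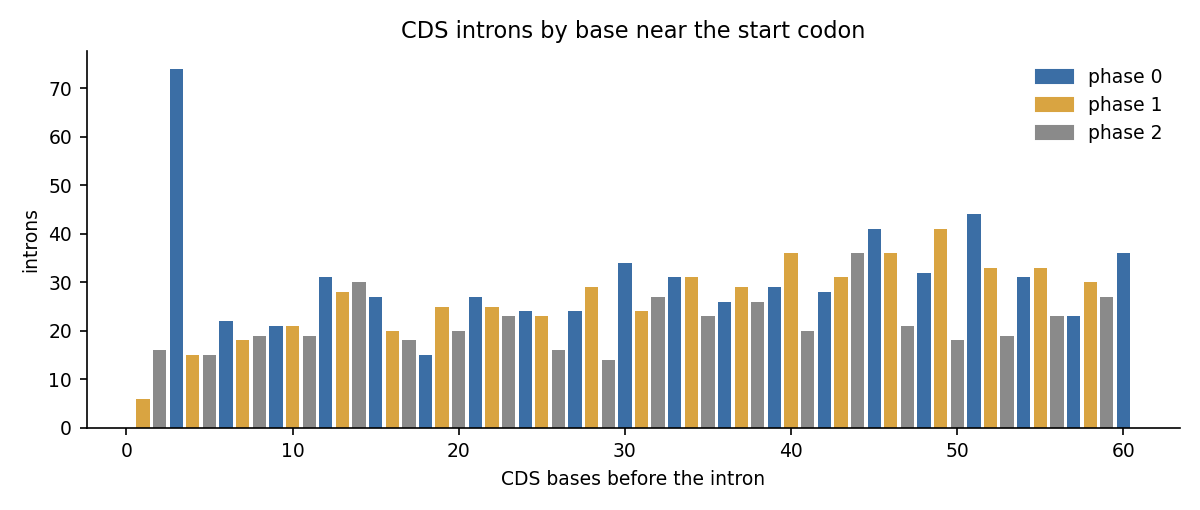
Bars give the number of introns after each of the first 60 CDS bases, coloured by intron phase. The bar after base 3, directly behind the start codon, reaches 74, against 6 and 16 for the places inside the start codon and at most 44 elsewhere.

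Within the start codon itself introns were fewer than directly after it. The place after base 2, with 16, lay within the range of 14 to 44 at places 4 to 60. Only the place after base 1, with 6, lay below that range. In 22 genes (0.226% of protein-coding genes, 95% counting interval 0.142 to 0.342%) an intron split the start codon, 6 after its first base and 16 after its second, against 74 directly after it and 15 each at the following pair of places. The split start codons lay on LG I (4), LG II (2), LG III (1), LG IV (4), LG V (5), LG VI (0) and LG VII (6). In each of the 22 genes the chosen transcript had an annotated 5′ UTR, of 88 to 824 bp, so that the splice site was not at the edge of the gene model. The introns ran from 53 to 403 bp with a median of 70.5 bp, and in 6 genes the splitting intron was the only member.

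On LG I the start codon was split in NCU02523 (2609316 to 2609375, 60 bp, after base 1), NCU02540 (2670449 to 2670623, 175 bp, after base 2), NCU11085 (8701022 to 8701080, 59 bp, after base 2) and NCU16466 (8764939 to 8765041, 103 bp, after base 2). On LG II it was split after base 2 in NCU16509 by an intron of 71 bp and in nuc-2 (NCU11426), a regulatory gene of phosphorus acquisition, by one of 115 bp (2174720 to 2174834). The gene nuc-2 also had the longest 5′ UTR of the 22, with 824 bp. The single case on LG III was NCU00343, with an intron of 111 bp after base 2. On LG IV the splitting introns measured 104 bp in NCU04946, 403 bp in NCU07666, 70 bp in NCU05292 and 69 bp in NCU05275. Of these 4, only that of NCU05292 followed base 2. On LG V NCU04652 had an intron of 55 bp, and the other 10 genes were on LG V and LG VII, with introns of 53 to 322 bp. Among them 2 have a symbol, pcb-4 (NCU01368, LG V) with 56 bp and mus-25 (NCU02348, LG VII), a DNA repair gene, with 103 bp.

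Of the 22 genes 19 had 1 coding transcript, and each of the other 3 had 1 more. In pcb-4 the second transcript had the same split start codon, whereas in NCU07666 and NCU01453 it started elsewhere, with an intact start codon and a CDS of 672 and 627 bp. Over all 10785 coding transcripts 26 had a split start codon. Those beyond the chosen transcripts of these genes and pcb-4 were the second transcripts of NCU06363, NCU06454 and NCU10346, whose chosen transcript had an intact one. At the other end of the CDS, 296 members lay in the last 30 coding bases, against 699 in the first 30. The stop codon, which the CDS records leave out, was split in 1 gene, NCU17251 on LG VII, by an intron of 55 bp (3166692 to 3166746), and in 1 gene, NCU00768 on LG I, an intron lay between the last CDS base and an intact stop codon. Neither intron was a member, since each had CDS on 1 side only.

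Between LGs the number of introns per gene differed more than the median intron length. There were 1.70 introns per gene on LG I (1.64 to 1.75), 1.55 on LG II (1.47 to 1.63), 1.59 on LG III (1.52 to 1.66), 1.64 on LG IV (1.57 to 1.70), 1.61 on LG V (1.55 to 1.68), 1.55 on LG VI (1.47 to 1.63) and 1.48 on LG VII (1.41 to 1.56). These intervals treat each intron as an independent count and leave out the spread of intron number between genes. Whether they overlap therefore does not decide whether LGs differ, and no test was made. Per kb of CDS the values were 1.09 on LG I, 0.994 on LG II, 1.03 on LG III, 1.06 on LG IV, 1.10 on LG V, 1.01 on LG VI and 0.994 on LG VII. The share of genes with no member was lowest on LG I (20.5%) and highest on LG VI (25.2%). Median intron length was 75 bp on LG II, 76 bp on LG III and 74 bp on each of the other LGs. LG III also had the largest share over 200 bp, 12.4%, and LG VII the smallest, 8.56%. The first of the 10 parts of the CDS held 17.4% of the members on LG VII and 19.5% to 21.0% on the other 6. In the first 100 coding bases the lowest of the 7 densities was 2.18 and the highest 2.90 introns per kb.

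Genes close to a chromosome end had fewer members. In the 389 genes whose midpoint lay within 100 kb of the first or last protein-coding gene of an LG there were 1.29 introns per gene and 0.866 per kb of CDS, against 1.62 per gene and 1.06 per kb in the other 9341 genes. The number per gene was lower near the ends in all 7 LGs, with the widest gap on LG IV (0.964 near the ends and 1.66 elsewhere) and the narrowest on LG VII (1.47 and 1.49). Per kb of CDS the order was the other way on LG V, with 1.13 near the ends and 1.10 elsewhere. The share of genes with no member was 26.2% near the ends and 22.0% elsewhere. On LG VI (23.6% and 25.3%) and LG VII (16.7% and 23.7%) that share was lower near the ends. The sets near the ends were small, with 29 genes on LG I and at most 68, on LG V. Median lengths were 75 bp near the ends and 74 bp elsewhere.

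Most members were common to all transcripts of their gene. In the 898 genes with more than 1 coding transcript there were 1961 members, and 1534 (78.2%) were a coding intron of every transcript. A further 76 were an intron of another transcript but lay outside its CDS, and 31 lay beyond the ends of another transcript. The rest differed in an exon boundary. In 125 the intron was retained within an exon of another transcript, in 96 another transcript used a different 5′ splice site with the same 3′ splice site, in 88 it used a different 3′ splice site with the same 5′ splice site, and 11 overlapped another intron in some other way. Alternative 3′ splice sites were the closer ones, with a median distance of 24 bp over 95 pairs of introns, against 77.5 bp over 108 pairs for 5′ splice sites. Of the 3′ pairs 18 were 3 bp apart and 52 (54.7%) were apart by a multiple of 3, whereas of the 5′ pairs 0 were 3 bp apart, 9 were 4 bp apart and 42 (38.9%) were apart by a multiple of 3.

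Retained introns had a median of 80 bp, against 69 bp for the introns common to every transcript. They were of phase 0 in 24.0% (16.8 to 32.5%), of phase 1 in 36.0% and of phase 2 in 40.0%, against 38.6%, 33.7% and 27.7% for the common introns. Their length was divisible by 3 in 48 of the 125 (38.4%, 29.8 to 47.5%). In 18 the retained sequence lay whole inside a coding exon of the other transcript. The transcript with the longest CDS was the one described, so an intron whose retention gave a longer CDS could not be a member. No member enclosed a whole gene, and 263 members (1.68%) overlapped an exon of another gene, 19 of them on the same strand.

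Among genes of known function, the listed genes of histones, ribosomal proteins and the cytoskeleton held more introns per kb than all genes together. Density fell with CDS length over all genes, so values for genes of like length are given beside them. The 9 histone genes that the symbols identify had 23 members, or 5.85 per kb of CDS, against 1.05 over all genes and 3.23 over the genes with a CDS of 300 to 599 bp, and all 9 had at least 1. The gene hH3 had 1 intron of 67 bp, hH4-1 had a pair of 69 and 68 bp and hH4-2 a pair of 316 and 65 bp, the variant gene hH4v had 5 (260, 185, 460, 72 and 80 bp), and hH2Az, the gene of the variant H2A.Z, had a pair of 491 and 109 bp. In hH4-1 and hH4-2 both introns were of phase 1. The 10 genes with a crp symbol or synonym, which encode cytosolic ribosomal proteins, had 24 members (4.17 per kb), and all 10 had at least 1. Of the 24 members 7 lay in cyh-2, in a CDS of 447 bp. The CDS of the 10 genes ran from 261 to 939 bp. Over all genes the density was 5.40 per kb under 300 bp, 3.23 at 300 to 599 bp, 1.83 at 600 to 899 bp and 1.27 at 900 to 1499 bp. Of the cytoskeletal genes act (actin, 5 introns of 140, 146, 118, 78 and 64 bp from 5′ to 3′) and Bml (beta tubulin, 6 introns of 241, 74, 68, 65, 73 and 57 bp) were found. These 2 genes had 11 members (4.46 per kb), against 1.27 per kb over genes with a CDS of 900 to 1499 bp.

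Per gene, the lists held 1.20 introns for the clock and light genes, 1.88 for the genes of heterochromatin and histone methylation and 2.00 for the classical loci, against 1.61 over all genes. Per kb of CDS all 3 lists were below the 1.05 of all genes, but many of their genes are long, and over all genes the density was 0.767 per kb with a CDS of 2100 to 2999 bp and 0.499 per kb with one of 3000 to 5999 bp. The clock gene frq (NCU02265) had none in its CDS of 2967 bp. The blue light receptor gene wc-1 had 1 intron of 67 bp, its partner wc-2 a pair of 157 and 86 bp, the helicase gene frh 1 of 68 bp and the photoreceptor gene vvd a pair of 64 and 69 bp, so that the 5 clock and light genes had 6 members (0.503 per kb). The 8 genes of heterochromatin and histone methylation that were found had 15 (0.645 per kb), and all 8 had at least 1. In 7 of them the introns were 58 to 113 bp, including the DNA methyltransferase gene dim-2 (64 bp), the H3K9 methyltransferase gene dim-5 (85 bp) and the heterochromatin protein 1 gene hpo (59, 67 and 58 bp). In the gene of the H3K27 methyltransferase, set-7 (NCU07496, LG I), both introns were far longer, at 765 and 588 bp, and both were of phase 0.

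Of the 11 classical loci, al-3 and qa-2 had no intron in the CDS. The glutamate dehydrogenase gene am had a pair of 66 and 61 bp, the carotenoid genes al-1 and al-2 had pairs of 77 and 108 bp and of 71 and 57 bp, and the nitrogen genes nit-2 and nit-3 had 99 and 78 bp in the first and 61 bp in the second. The genes his-3 and pan-2 had 1 each, of 63 and 217 bp. The kinase gene cot-1 had 4 introns of 78, 67, 59 and 58 bp, all of phase 2. The gene msh4 (NCU10895, LG I) had the most of the list, with 7 introns of 81, 52, 52, 52, 48, 55 and 56 bp, a median of 52 bp. Over the 11 genes there were 22 members, or 0.985 per kb of CDS, with a median length of 62 bp. Since the lists were short and chosen with results known, these values are a description.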

How the data were processed

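The authors deposited a gene annotation (GTF) of nc14 with 81158 records on 7 LGs. Its values are start and end positions in bp and, for CDS records, a reading frame of 0, 1 or 2, per the file. The tool behind the transfer of gene models onto nc14 was not given in the sources used here. Hi-C matrices, reads and the nc14 sequence were not analysed here.

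Analysis used Python 3.11.15 with numpy 2.4.6, scipy 1.17.1 and matplotlib 3.10.9. Members were found by the rule given above, ties going to the lowest transcript identifier. Phase was the number of CDS bases before the intron modulo 3, and position was that number over the CDS length without the stop codon. Intervals are 95% exact binomial (shares), order-statistic (medians) or Poisson (introns per gene) and cover counting error only. The code recovered all 623 introns and phases planted in 200 simulated transcripts. Symbols came from RefSeq by locus tag, with no coordinates used (9729 of 9730 genes matched, 1118 with a symbol). Columns of single samples used were 0.

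Genes named were those with the most introns (5 in all, and 1 per LG), the 5 longest and 5 shortest introns, the first 12 split start codons by position, split stop codons, the 5 shortest internal exons and gene lists, with others marked as chosen after their values were seen. The lists were clock and light, heterochromatin and histone methylation, histones, cytoskeleton, ribosomal proteins and classical loci. The members and lists were chosen with earlier results of these data known. The lists' symbols eed, ash1, tub-1 and tub-2 matched no gene. Alternatives changed the transcript, the definition of an intron, length filters, gene models, phase and position.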

Additional observations from a re-analysis of the deposited data

How the results depend on the processing

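Of 106 values recomputed under 13 alternatives, 100 stayed within the counting interval of the reported value, or within 1.5 times a reported count. That count includes the lowest transcript identifier, CDS gaps without the exon condition and the frame column. These gave identical introns and phases, so their values could not differ. The 2 length filters kept 15605 and 15608 of the 15631 members, complete gene models 15629 and genes without CDS overlap 15587. Their values therefore had little room to move. All 6 values that moved came from the remaining alternatives, so the 100 are a weak measure of stability. Counting every distinct CDS intron over all transcripts gave 1.636 introns per gene, against 1.606. The median position was 30.4% in genes with exactly 1 intron and 31.6% in genes with a CDS of at least 900 bp, against 33.9%, and the first of 10 equal parts of the CDS held 21.3% and 21.9%, against 19.8%. Counting an intron as shared wherever it was an exon gap in every transcript, coding or not, gave 82.1%, against 78.2%, and this alternative and that of all UTR introns were chosen after seeing the data. Taking the lowest transcript identifier changed no value, because the transcript numbered 0 had the longest CDS in every gene, and every CDS gap was an exon gap. The frame column gave the same phase for each member. Leaving out introns under 40 bp or over 1000 bp left the median length at 74 bp. The annotation has no depth, so support for a single intron was not analysed here. No paired analysis was possible because no value in the annotation belongs to a replicate.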

Other observations

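The gene NCU16528 on LG II has no stop codon record, and 17 genes have a CDS that overlaps the CDS of another gene. Without those 17 genes 15587 members remained, with the same 22 split start codons in number and a median length of 74 bp.

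An earlier report lists the genes NCU10889, NCU10893, NCU10894 and msh4 (NCU10895) on LG I as displaced, and positions were not compared with NC12 here. Their place in nc14 is therefore taken as uncertain, while lengths and phases are read within the gene. NCU10889 had 1 member of 262 bp, NCU10893 had 1 of 297 bp and NCU10894 had 3 of 275, 172 and 49 bp.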
